A study of Mus musculus with 2 samples.

Results

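Type 2 conventional dendritic cells (cDC2) of the steatotic mouse liver were taken from droplet single-cell RNA profiles and described in recipients of Trem2-/- and of Trem2+/+ bone marrow. Each cell was chosen by raw molecule counts (unique molecular identifiers, UMIs). A member had at least 2 UMIs of the lectins Cd209a, Clec10a and Mgl2 together and at least 20 UMIs of Cd74. It also had at most 1 UMI of Xcr1 and Clec9a together, at most 1 of Fscn1, at most 2 of C1qa, C1qb and C1qc together, at most 1 of Mki67 and Top2a together, and 0 of Cd3d, Cd3e, Cd79a and Siglech. The rule found 181 members among 12576 filtered cells, 89 of 5978 from the recipients of Trem2-/- marrow and 92 of 6598 from those of Trem2+/+ marrow. The rule reads the measured values, so the genes in it are described here and support nothing.

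The recipients were male C57Bl6/J mice that received lethal irradiation and then marrow from littermate donors, either Trem2-/- or Trem2+/+. All recipients had 6 weeks to recover and then 4 weeks of methionine- and choline-deficient (MCD) food, a model of steatohepatitis, so no group on a normal diet enters the comparison. Live (7AAD-negative) CD45-positive liver cells of 4 mice per group were combined in equal parts and run as 1 library per group with 5' chemistry. The labels do not give the recipients' age or tell donor cells from remaining recipient cells. With 1 library per group no difference has a replicate check, no test between the groups was made, and every interval covers counting error only.

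Conventional dendritic cells take up antigen, load peptides on major histocompatibility complex (MHC) class II and present them to T cells. They depend on the cytokine receptor Flt3, and the type 2 lineage is known for priming CD4 T cells, whereas the Xcr1-positive type 1 lineage (cDC1) is known for cross-presentation to CD8 T cells. Type 2 cells share many transcripts with monocytes and their descendants. Trem2, the receptor that differs between the donors, is chiefly a receptor of macrophages that binds lipids and signals through the adaptor Tyrobp.

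The Trem2-/- and Trem2+/+ libraries held 25288032 and 27238586 UMIs. Members had a median of 7948 UMIs and 2408 genes per cell in the Trem2-/- library and 7679.5 UMIs and 2252.5 genes in the Trem2+/+ library. The libraries had 56 barcodes in common, and 0 and 2 members carried one of them. Over all filtered cells Trem2 had 154 UMIs in the Trem2-/- library and 5478 in the Trem2+/+ library. Among members it had 0 and 5 UMIs. For this count of 0 the upper limit was set at 3 UMIs. In the Trem2-/- members that is 4.30 CPM (UMIs of a gene per 1000000 UMIs summed over the members of 1 library). The level of Trem2 in the Trem2+/+ members was 7.53 CPM. Its level in Trem2+/+ C1q macrophages (at least 10 C1q UMIs) was 619 CPM, so members of either library carried little of the transcript that the donors differ in.

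Members were 1.49% of filtered cells (95% exact Clopper-Pearson interval 1.20 to 1.83) with Trem2-/- marrow and 1.39% (1.13 to 1.71) with Trem2+/+ marrow. On the log2 scale the ratio of these shares, Trem2-/- over Trem2+/+, was 0.09 (95% interval -0.32 to 0.51). The C1q macrophage gate took 7.98% of filtered cells in the Trem2-/- library and 13.1% in the Trem2+/+ library, and this moves the share of every other cell type. Outside that gate members were 1.62% and 1.60% of cells, a log2 ratio of 0.01 (-0.40 to 0.43). Set against conventional dendritic cells alone (members, the cDC1 gate with at least 2 UMIs of Xcr1 and Clec9a, and the mature dendritic cell gate with at least 2 UMIs of Fscn1), members made up 31.9% of 279 cells and 31.7% of 290 cells. That ratio was 0.01 (-0.34 to 0.36), so at this depth no difference in the frequency of the cells was detectable. The intervals still allow a moderate difference in either direction.

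The lectins that chose the members were not equally common. Cd209a, the mouse relative of DC-SIGN, stood at 1133 CPM in the Trem2-/- library and 973 CPM in the Trem2+/+ library, with UMIs in 77 and 83 members. Clec10a, a receptor for galactose-type sugars, stood at 416 and 307 CPM in 61 and 58 members. Its neighbour Mgl2 stood at 90.4 and 152 CPM in 19 and 26 members. The annotated transcripts of Clec10a and Mgl2 align over 759 positions with 93.9% identity and hold a common stretch of 183 bases, so reads of this pair can be split between them or lost. Just inside the threshold, 11 and 13 members had exactly 2 lectin UMIs. Their Flt3 levels were 150 and 162 CPM, against 79.6 and 106 CPM in the 18 and 24 cells with 1 lectin UMI that met every other condition. Csf1r, the receptor of monocytes and macrophages, ran the other way, at 199 and 378 CPM in the cells just inside and 694 and 532 CPM in those just outside. In these few cells Flt3 was higher and Csf1r lower just inside the lectin threshold in both libraries. No interval was computed for these levels, and the difference was not tested.

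Markers that the rule did not use were checked against the label. Flt3 was read in 53 of 89 and 55 of 92 members, at 166 and 193 CPM. H2-DMb2, a class II peptide-loading chain enriched in dendritic cells, stood at 328 and 230 CPM. Irf4, a transcription factor of type 2 cells, stood at 57.4 and 64.7 CPM in members, at 3.54 and 1.33 CPM in cDC1, and at 11.8 and 6.21 CPM in Ly6C-high monocytes (at least 2 Ly6c2 UMIs and few neutrophil S100 transcripts). Zbtb46, a factor of the conventional lineage, stood at 41.6 and 51.2 CPM. Members thus carried both a class II and Flt3 programme and Irf4 in each library.

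Of 10 type 2 markers outside the rule, 8 passed the level filter for comparison with monocytes, and 7 of these were at least 1.5-fold higher in members in both libraries and 0 lower, where 7.74% of 3126 genes were higher and 14.3% lower. Against C1q macrophages 7 of 8 were higher and 1 lower, beside 13.3% and 19.5% of 3264 genes. Against cDC1, 5 of 9 were higher and 2 lower, beside 15.4% and 9.8% of 3001 genes. Against mature dendritic cells, 5 of 9 were higher and 0 lower, beside 25.6% and 19.7% of 3180 genes. The marker Clec4a4, common on some type 2 cells of lymphoid tissue, was nearly absent, with 1 and 2 UMIs, and Esam had 1 and 7. The gates themselves were set by gene counts, so these are descriptions of the gates.

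**Figure D1:**
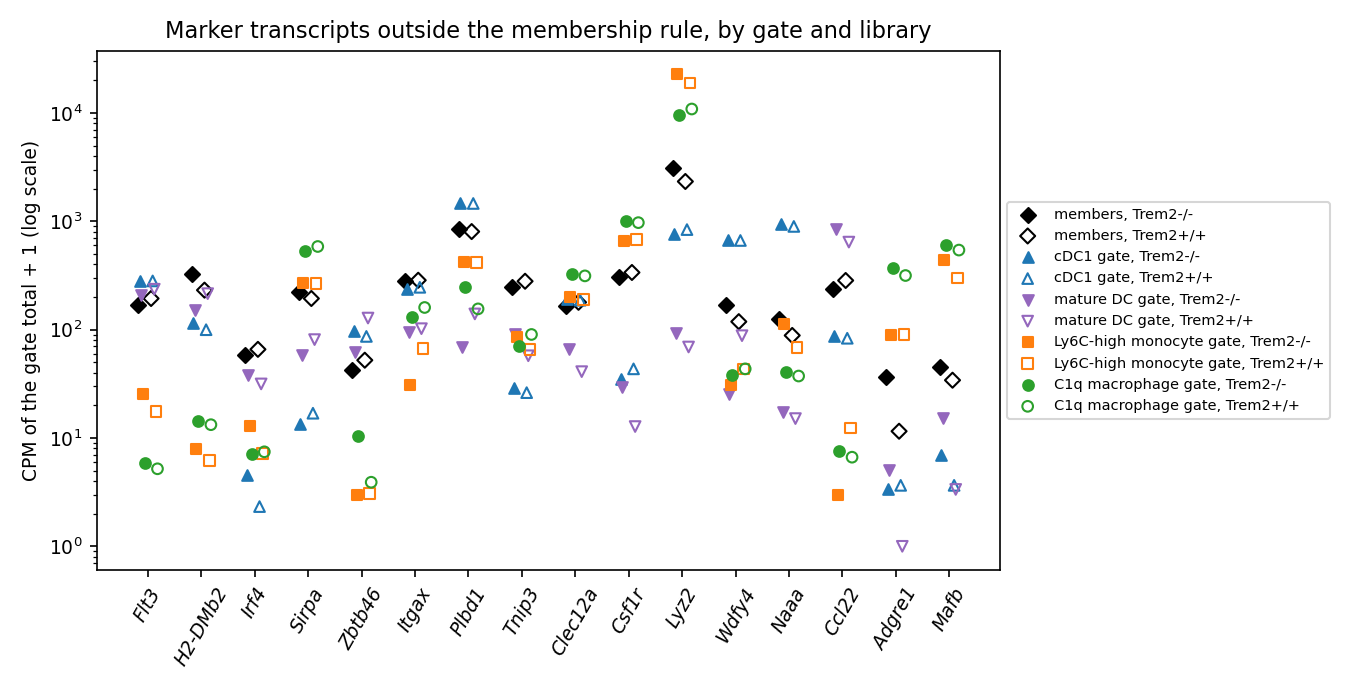
Level of 16 marker genes (horizontal axis) in members and in each of 4 comparison gates, as CPM of the summed gate plus 1 on a log axis; filled symbols are the Trem2-/- library and open symbols the Trem2+/+ library, with 1 value per library and no error bar. Members (black diamonds) lie with the other dendritic cells for Flt3 and H2-DMb2, above every other gate for Irf4 and Tnip3, and between cDC1 and monocytes for Csf1r and Lyz2.

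Monocyte-shared transcripts were part of the profile. Csf1r was read in 67 and 70 members at 305 and 336 CPM, below its 1013 and 970 CPM in C1q macrophages and above its 34.2 and 42.4 CPM in cDC1. Flt3 and Csf1r were both read in 38 and 42 members. Ccr2, the receptor for monocyte-attracting chemokines, stood at 321 CPM in 61 Trem2-/- members and 479 CPM in 75 Trem2+/+ members. Lyz2, lysozyme, stood at 3108 and 2328 CPM. Ly6c2 was read in only 11 members of each library. Of 10 measured monocyte-shared genes, 9 were at least 1.5-fold lower in members than in monocytes in both libraries, where 14.3% of genes were lower. The cells therefore shared these transcripts with monocytes at lower levels.

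Outside the gates' own genes, 12 genes stood furthest above the next gate in both libraries. The first was Tnfsf9, the ligand of the T-cell receptor 4-1BB, at 754 and 887 CPM in members and at 201 and 185 CPM in the next gate, monocytes. Tnip3, an inhibitor of NF-kappaB signalling, stood at 248 and 279 CPM against 90.5 and 89.2 CPM in the next gate. Slamf9, a receptor of the SLAM family, stood at 181 and 178 CPM against 81.0 and 73.9 CPM. These lie 1.90 and 2.25, 1.45 and 1.63, and 1.15 and 1.25 above the next gate on the log2 scale. The others were Trappc5, Hivep2, Sirpb1a, Mdh2, Klrd1, Retreg1, Napsa, Stap1 and H2-Oa. Napsa encodes an aspartic protease and stood at 786 and 748 CPM. H2-Oa, which holds back peptide loading by H2-DM, stood at 261 and 251 CPM. Klrd1, better known from natural killer cells, stood at 272 and 294 CPM, while the natural killer marker list had 8 and 2 UMIs in all members together. All 12 were picked because they were high in both libraries, so their agreement between libraries is fixed by the choice.

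Class II chains and loading genes had the highest summed level of the 33 gene lists, 39325 and 40253 CPM, close in the libraries. Members were chosen with at least 20 Cd74 UMIs, so a high class II level may in part follow from that choice. H2-Aa, an alpha chain, stood at 13716 CPM in the Trem2-/- members and 14334 CPM in the Trem2+/+ members. H2-Ab1, its beta chain, stood at 8751 and 9079 CPM, and H2-Eb1 at 11148 and 11559 CPM. The log2 ratios of these chains, all Trem2-/- over Trem2+/+ here and below, were -0.06, -0.05 and -0.05. Cd74, the invariant chain used by the rule, stood at 37308 and 39491 CPM.

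Of 13 class II chain and loading genes, 12 reached a mean of 50 CPM, and 0 of them were 1.5-fold higher and 0 were 1.5-fold lower. Over all 2633 genes at that level, 132 (5.01%) were at least 1.5-fold higher in Trem2-/- members and 73 (2.77%) at least 1.5-fold lower. With median-of-ratios scaling in place of the total the split was 106 and 91, and with the mean over cells it was 286 and 88, so a surplus of higher genes depends on the scaling. The class II median log2 ratio was 0.02, against 0.03 for all genes. Within the list H2-DMb2 lay highest, at 0.51 (0.21 to 0.82). Its ratio was -0.072 after every cell was thinned to 2000 UMIs and the rule was applied again, which left 63 and 69 members. All ratios after thinning given below come from these members, so they differ from the main values in the cells as well as in depth. Ciita, the master regulator of class II, had a ratio of 0.32 (-0.07 to 0.72), and March1, the ligase that removes class II from the surface, had -0.42 (-0.98 to 0.13).

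Promoters were read for genes of the class II programme and of the interferon response, because these groups contrast between the libraries. RefSeq promoters (GRCm38.p6) were found for 11 of 14 genes looked up, all but Ccl4, H2-Ab1 and Clec10a, and each sequence below is the 250 bases before the transcription start, 5' to 3' on the gene's own strand. Of the class II promoters found, those of H2-Aa and H2-Eb1 are printed, and capitals mark the Y box, CTGATTGG (CCAATCAG on the other strand), a core promoter element of this family. It was present in 3.83% of 32851 promoters of the same length. The H2-DMb2 promoter did not hold these letters in this window. The Y box lay at -51 to -44 in H2-Aa (chr17:34287824-34288073, minus strand) and at -62 to -55 in H2-Eb1 (chr17:34305617-34305866, plus strand).
H2-Aa: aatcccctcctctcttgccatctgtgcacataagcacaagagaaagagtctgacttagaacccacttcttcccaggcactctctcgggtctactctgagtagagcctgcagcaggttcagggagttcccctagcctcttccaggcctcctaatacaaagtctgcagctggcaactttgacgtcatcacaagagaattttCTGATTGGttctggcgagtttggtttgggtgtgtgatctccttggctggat
H2-Eb1: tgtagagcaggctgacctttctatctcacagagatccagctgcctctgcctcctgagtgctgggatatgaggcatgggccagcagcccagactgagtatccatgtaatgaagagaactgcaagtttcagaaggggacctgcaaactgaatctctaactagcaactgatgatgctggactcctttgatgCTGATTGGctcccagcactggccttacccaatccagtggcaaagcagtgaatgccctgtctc

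The same letters CCAATCAG were also in the Cxcl9 and Cxcl10 promoters, so the Y box letters do not separate the class II genes from the interferon-response genes. A match is a description of the letters and not evidence of binding.

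Class I and the degradation machinery were close to the level of all genes. H2-K1 stood at 1665 and 1575 CPM and B2m at 2189 and 2197 CPM. Of 11 measured class I and loading genes (median 0.16), 1 was 1.5-fold higher and 0 lower, beside 5.01% and 2.77% of all genes. The 1 was Psmb9, a subunit of the immunoproteasome, at 293 and 191 CPM (0.61, 0.29 to 0.94; 0.34 after thinning, short of 1.5-fold). All 19 measured endosomal protease and lysosome genes lay within 1.5-fold, with a median of 0.20, and 17 had a ratio above 0, as had 1439 of the 2633 genes. The cathepsin inhibitor Cst3, among the most abundant transcripts of dendritic cells, stood at 5730 and 5789 CPM. This was below its 26301 and 25992 CPM in cDC1 and 19621 and 19450 CPM in mature dendritic cells. It was above the 1926 and 2129 CPM in monocytes.

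Interferon-response genes spread over a wide range, with quartiles of the log2 ratio at -0.23 and 1.07, against -0.15 and 0.23 for all genes. Of 30 genes, 15 were measured at a mean of 50 CPM, 6 were at least 1.5-fold higher in the Trem2-/- members and 2 at least 1.5-fold lower, beside the 5.01% and 2.77% of all genes. The list median was 0.15, against 0.03. The higher genes included Gbp2, Cxcl9, Cxcl10, Zbp1 and Irf1, and the 2 lower ones were Isg15 and Irf7. The list thus did not move as a block.

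Cxcl9, a chemokine that draws CXCR3-bearing T cells (chromosome 5, 92321347 to 92328079, mm10), was read in few cells. It had 357 UMIs in 8 Trem2-/- members and 69 UMIs in 5 Trem2+/+ members, or 512 CPM and 104 CPM, a log2 ratio of 2.30 (1.93 to 2.69). One member held 210 of the 357 UMIs and another held 64 of the 69. The 3 richest members held 94.1% and 97.1%. Cells with a Cxcl9 UMI made up 8.99% and 5.43% of members, against 2.08% and 1.54% of the shallower T and B cells (medians of 3036.5 and 2425.5 UMIs), which do not make it. Without the richest member of each library 147 and 5 UMIs were left, and the ratio was 4.82. The size of the Cxcl9 difference is hence set by a few cells, and its counting interval understates the error.

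Gbp2, an interferon-induced GTPase, showed the same form. It had 116 UMIs in 16 members and 18 UMIs in 6 members, which are 166 and 27.1 CPM (2.62, 1.89 to 3.42). One member held 60 of the 116, and another held 12 of the 18. Without these the counts were 56 and 6 and the ratio 3.16. Of the 8 Trem2-/- members with Cxcl9, 4 had Gbp2, and of the 5 Trem2+/+ members with Cxcl9, 2 did.

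Cxcl10, a second CXCR3 ligand, had 211 and 85 UMIs in 15 and 14 members (303 and 128 CPM, 1.24, 0.87 to 1.62). A Cxcl10 UMI was read in 16.9% and 15.2% of members, against 4.71% and 4.13% of T and B cells. Among members chosen at full depth and then thinned to 2000 UMIs, it was read in 12% of 83 (5.93 to 21) and 5.88% of 85 (1.94 to 13.2). These intervals overlap. In T and B cells thinned alike it was read in 2.73% and 3.79%. The 3 richest members held 65.4% and 63.5% of the UMIs. Irf1, an early interferon-induced factor, was spread over 54 and 50 members at 254 and 169 CPM, a ratio of 0.59 (0.24 to 0.94) that sits on the 1.5-fold line and was 0.49 without the richest members. Zbp1, a nucleic acid sensor, stood at 84.6 and 45.2 CPM (0.91, 0.25 to 1.59), with a ratio of 0.35 after thinning.

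The 2 genes past 1.5-fold on the other side, Isg15 and Irf7, are known from the type I interferon response. The list was not divided by type of interferon. Isg15, a ubiquitin-like protein (chromosome 4, 156199424 to 156200818, mm10), had 86 UMIs in 27 Trem2-/- members and 144 UMIs in 43 Trem2+/+ members. This makes 123 CPM (Poisson interval 98.7 to 152) against 217 CPM (183 to 255), and the ratio was -0.81 (-1.22 to -0.42), or -0.58 when cells with at least 1 lectin UMI were admitted, just short of 1.5-fold. Irf7, which amplifies type I interferon, stood at 67.4 and 113 CPM (-0.74, -1.30 to -0.20). Without the richest member of each library the ratios were -0.69 and -0.56, the second no longer past 1.5-fold. Ifitm3, the most abundant gene of the list, stood at 3071 and 3249 CPM (-0.08, -0.17 to 0.01). Genes of both directions were thus present in the same summed members.

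**Figure D2:**
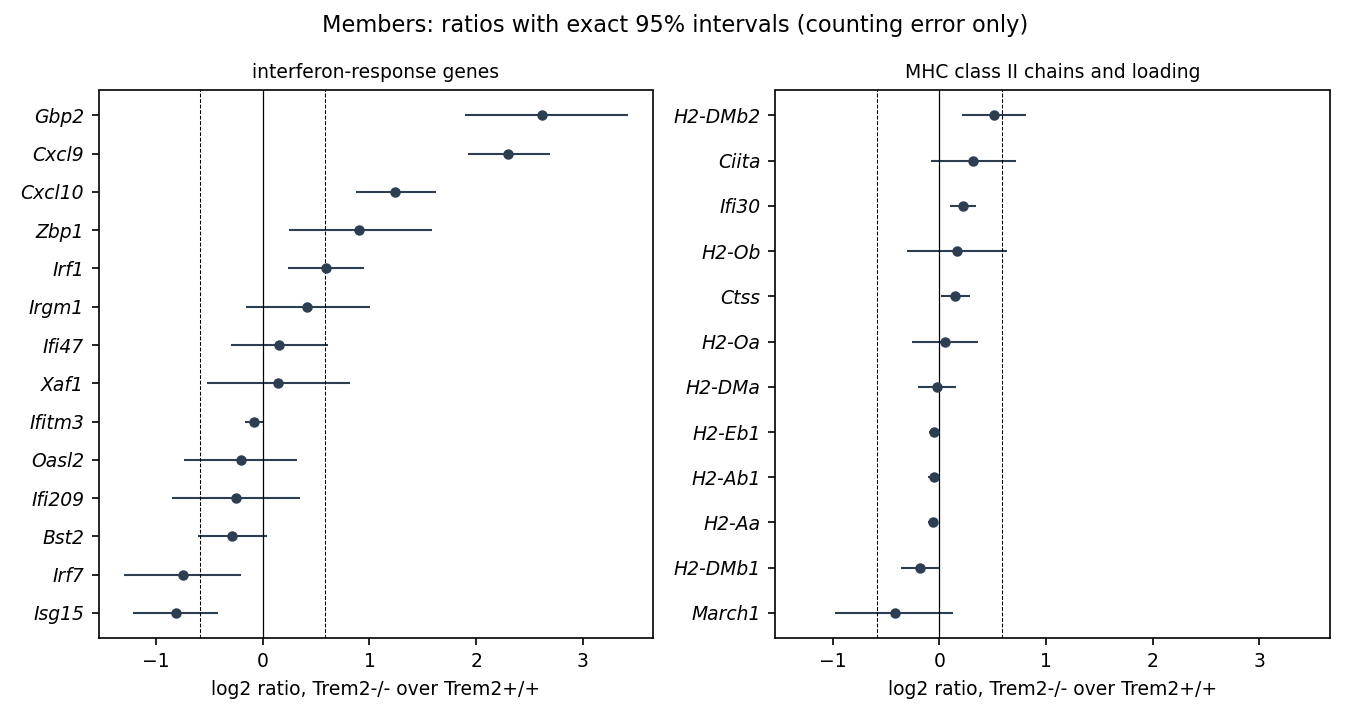
Log2 ratio of Trem2-/- over Trem2+/+ members (horizontal axis) for 14 of the 15 measured interferon-response genes (left) and 12 class II genes (right), with exact 95% intervals that cover counting error only; dashed lines mark 1.5-fold. Interferon-response genes run from -0.81 (Isg15) to 2.62 (Gbp2), whereas class II genes stay inside the dashed lines.

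The promoters of these opposite genes were compared for the letters of interferon elements. The ISRE-type motif was searched as GAAA, any 2 bases and GAAA (TTTC, any 2 bases and TTTC on the other strand), and 2.98% of 32851 promoters held it. The GAS-type motif, named for interferon gamma activation, was searched as TTCNNNGAA, which reads the same on both strands, and 7.02% held it. Capitals mark the matches. Gbp2 had 1 ISRE-type match at -59 to -50 (chr3:142620413-142620662, plus strand), Cxcl10 1 at -213 to -204 (chr5:92348890-92349139, minus strand), and Isg15 3 that overlap between -78 and -57 (chr4:156200819-156201068, minus strand). Irf1 had 2 promoters, and the first had a GAS-type match at -90 to -82 (chr11:53769764-53770013, plus strand). The second (chr11:53770223-53770472, plus strand) held neither motif and is not printed.
Gbp2: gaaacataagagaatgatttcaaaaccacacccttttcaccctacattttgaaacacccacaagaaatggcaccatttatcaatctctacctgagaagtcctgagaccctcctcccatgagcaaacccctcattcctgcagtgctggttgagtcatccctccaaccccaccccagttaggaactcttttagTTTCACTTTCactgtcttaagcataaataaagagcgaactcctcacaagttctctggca
Cxcl10: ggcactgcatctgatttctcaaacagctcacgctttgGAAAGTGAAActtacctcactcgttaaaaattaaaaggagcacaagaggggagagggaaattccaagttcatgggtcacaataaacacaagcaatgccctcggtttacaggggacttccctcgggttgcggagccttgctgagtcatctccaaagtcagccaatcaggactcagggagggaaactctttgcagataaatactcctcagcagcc
Irf1: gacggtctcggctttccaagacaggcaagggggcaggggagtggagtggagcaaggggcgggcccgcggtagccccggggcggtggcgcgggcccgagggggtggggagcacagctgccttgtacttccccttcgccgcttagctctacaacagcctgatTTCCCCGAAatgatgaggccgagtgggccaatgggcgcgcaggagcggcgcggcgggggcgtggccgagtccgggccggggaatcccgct
Isg15: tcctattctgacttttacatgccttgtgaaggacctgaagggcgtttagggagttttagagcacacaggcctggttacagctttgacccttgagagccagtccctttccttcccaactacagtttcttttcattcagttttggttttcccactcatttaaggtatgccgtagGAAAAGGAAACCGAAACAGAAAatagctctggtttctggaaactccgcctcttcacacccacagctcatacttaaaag

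Genes of both directions carried ISRE-type letters: Gbp2 and Cxcl10, which were higher in the Trem2-/- members, and Isg15, which was lower. The letters alone do not sort the genes by direction. Neither motif was in the 250 bases of Cxcl9 or Irf7, which says only that these letters are not in that window.

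Other gates of the same 2 libraries gave these values. Cxcl9 had a log2 ratio of 2.10 in cDC1, 1.02 in mature dendritic cells and 0.23 in monocytes. Isg15 had 1.43 in cDC1, 1.54 in mature dendritic cells and -0.77 in monocytes. It also had -0.49 (-0.67 to -0.32) in T cells, -0.55 (-1.23 to 0.12) in B cells, 0.03 (-0.11 to 0.17) in C1q macrophages and -0.30 (-0.36 to -0.23) over all filtered cells, so the Trem2-/- library also had less Isg15 in monocytes, T cells and all filtered cells. The interval in cDC2 (-1.22 to -0.42) lies wholly below that in cDC1, and no test over animals was possible. Ifng, the gene of interferon gamma, had 0 UMIs in members of either library. In T cells it stood at 276 CPM in the Trem2-/- library and 154 CPM in the Trem2+/+ library. Its part in the members' values was not tested.

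**Figure D3:**
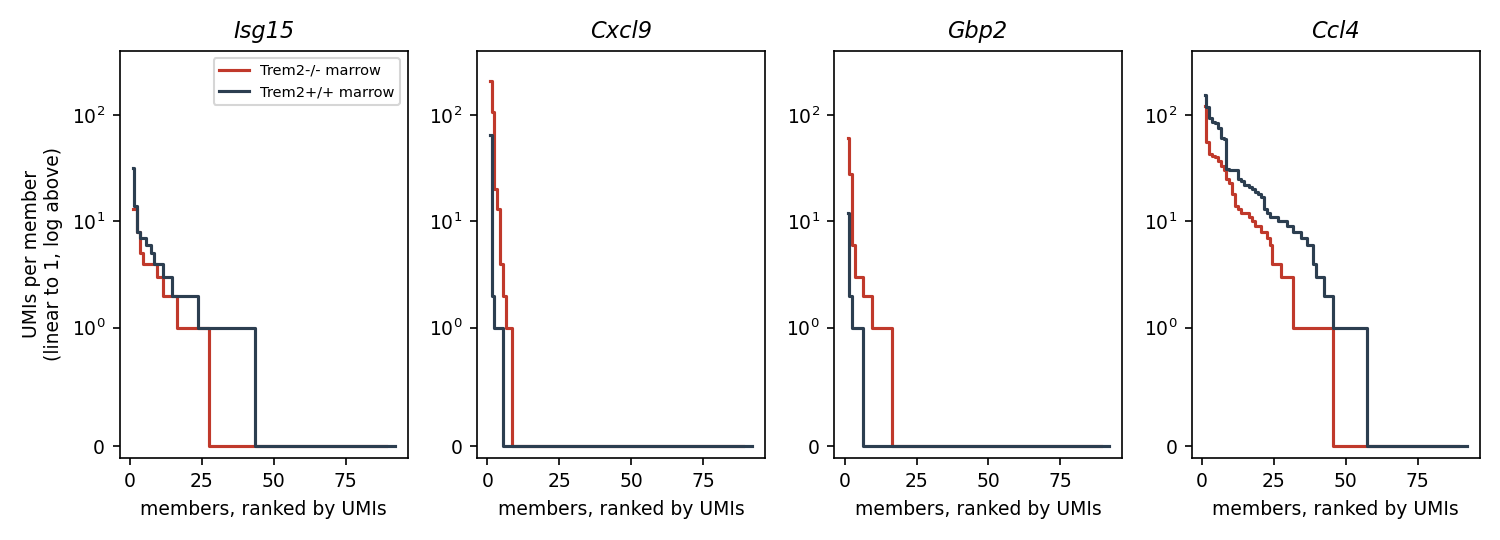
UMIs per member of Isg15, Cxcl9, Gbp2 and Ccl4 (vertical axis, linear up to 1 and logarithmic above), with members ranked from the highest (horizontal axis); the red line is the Trem2-/- library (89 members) and the dark line the Trem2+/+ library (92 members). The Isg15 and Ccl4 lines are apart over many ranks, while Cxcl9 and Gbp2 fall to 0 within 8 and 16 members.

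No chemokine other than the CXCR3 ligands was 1.5-fold higher in the Trem2-/- members. Of 11 measured, 2 were 1.5-fold higher (Cxcl9 and Cxcl10) and 3 lower (Ccl4, Ccl5 and Cxcl2), beside 5.01% and 2.77% of all genes. Their median was -0.25. Ccl4, an inflammatory CC chemokine (chromosome 11, 83662584 to 83664683, mm10), had 637 UMIs in 45 Trem2-/- members and 1228 UMIs in 57 Trem2+/+ members. Its level of 914 CPM (844 to 987) stood against 1849 CPM (1747 to 1955), and the ratio was -1.02 (-1.16 to -0.88). Without the richest members the ratio was -1.13, so no single cell set it. Of members chosen at full depth and then thinned to 2000 UMIs, 33.7% and 47.1% kept a Ccl4 UMI, with intervals that overlap. Of T and B cells together, thinned alike, 35.8% and 27.2% did. In other gates the Ccl4 ratio was -1.51 (-1.81 to -1.22) in B cells, -0.47 in monocytes and -0.15 in C1q macrophages. It was 0.45 in cDC1, 0.89 in mature dendritic cells and 1.17 in T cells. A lower Ccl4 level in the Trem2-/- library was thus not particular to members.

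Its relative Ccl3 stood at 270 and 321 CPM (-0.25, -0.54 to 0.04). Ccl5 stood at 93.2 and 188 CPM (-1.01, -1.47 to -0.57), and was read in 29.2% and 32.6% of members. T cells are a main source of Ccl5, and 57.7% and 44.0% of T and B cells had a UMI of it. The part of free RNA in the members' values was not tested. Cxcl2, a neutrophil attractant, stood at 218 and 351 CPM, yet 1 Trem2-/- member held 140 of 152 UMIs. Without the richest members its ratio went from -0.69 to -3.52. Ccl17 and Ccl22, the CCR4 ligands typical of type 2 cells, stood at 139 and 131 CPM and at 234 and 283 CPM, with ratios of 0.09 (-0.35 to 0.52) and -0.28 (-0.59 to 0.03). Both intervals include 0.

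Of 6 measured cytokine genes, 1 was 1.5-fold higher and 2 lower, beside 5.01% and 2.77% of all genes. Il1b, the most abundant, stood at 2571 and 2531 CPM, and Tnf at 337 and 381 CPM. The higher gene was Osm, oncostatin M, at 88.9 and 30.1 CPM in 18 and 10 members (1.56, 0.81 to 2.37). The lower ones were Ltb, lymphotoxin beta, at 47.3 and 84.3 CPM (-0.83, -1.50 to -0.19), and Il1rn, the interleukin-1 receptor antagonist, at 38.7 and 73.8 CPM (-0.93, -1.66 to -0.22). With at least 4 lectin UMIs the Ltb ratio was -0.13, and with at least 1 the Il1rn ratio was 0.15.

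Of 15 measured transcription factors of the lineage, 2 were 1.5-fold higher and 1 lower, beside 5.01% and 2.77% of all genes, with a median of 0.03. Irf8, the factor on which cDC1 depend, stood at 110 CPM in 27 Trem2-/- members and 46.7 CPM in 14 Trem2+/+ members (1.24, 0.62 to 1.89). Nfil3, which acts early in dendritic cell development, stood at 91.8 and 37.6 CPM in 29 and 18 members (1.29, 0.60 to 2.01). After thinning to 2000 UMIs these ratios were 0.26 and 0.13, no longer past 1.5-fold. Cebpa, a myeloid factor, stood at 47.3 and 91.8 CPM in 26 and 37 members (-0.96, -1.61 to -0.32). Irf4 and Klf4 had ratios of -0.17 (-0.83 to 0.48) and -0.12 (-0.49 to 0.25). The cDC1 marker list, which includes Irf8 itself (77 and 31 UMIs), had 404 UMIs in Trem2-/- members and 283 in Trem2+/+ members. This was 579 and 426 CPM in sum. Of the list's 5 measured genes, 4 had a ratio above 0. Wdfy4 and Naaa each had 0.50, while Batf3 had -0.17 (-0.67 to 0.32), at 99.0 and 111 CPM. Xcr1, capped by the rule, was at 0 in both libraries. The part of the other cDC1 transcripts in the Irf8 value was not tested.

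Of 17 measured maturation genes, 2 were 1.5-fold higher and 1 lower, beside 5.01% and 2.77% of all genes. Their median was -0.14, against 0.03 for all genes. Ccr7, which guides dendritic cells to lymph nodes, stood at 151 and 78.3 CPM in 12 and 11 members (0.94, 0.45 to 1.45), and Tbc1d4 at 106 and 60.2 CPM in 24 and 12 members (0.82, 0.24 to 1.41; 0.55 after thinning, short of 1.5-fold). Il4i1, an amino acid oxidase of mature cells, stood at 34.4 and 76.8 CPM in 10 and 17 members (-1.16, -1.92 to -0.43), but its ratio was 0.55 after thinning. Of 9 costimulatory and inhibitory ligands, Cd86 (81.7 and 54.2 CPM) and Cd24a (73.1 and 46.7 CPM) were past 1.5-fold higher and 0 were lower, and both intervals include 0. Among members with Ly6c2 at 0 their ratios were 0.49 and 0.45, short of 1.5-fold. Of 12 growth factor and Notch receptors, 0 were higher and 1 was lower, Tgfbr1, at 45.9 and 78.3 CPM (-0.77, -1.45 to -0.11), whose ratio was 0.28 after thinning.

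Of 10 measured monocyte-shared genes, 2 were 1.5-fold higher and 1 lower, beside 5.01% and 2.77% of all genes, and the median was 0.16 against 0.03. F13a1, a coagulation factor gene of monocytes, stood at 194 CPM in 16 Trem2-/- members and 87.3 CPM in 17 Trem2+/+ members (1.15, 0.69 to 1.62), and Ly6c2 at 80.3 and 36.1 CPM in 11 members of each (1.15, 0.44 to 1.91). The Ly6c2 ratio was 0.20 after thinning. Cx3cr1, the fractalkine receptor, stood at 41.6 and 94.9 CPM in 15 and 33 members (-1.19, -1.88 to -0.53). Ccr2 had a ratio of -0.58 (-0.83 to -0.32), just short of 1.5-fold. The numbers of F13a1 and Ly6c2 cells were thus close, while fewer Trem2-/- members had Cx3cr1 or Ccr2. The rule admitted 7 Trem2-/- members and 0 Trem2+/+ members with 20 to 29 Cd74 UMIs, and these cells had 419 CPM of Ly6c2.

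Among 8 measured lectins outside the rule, 3 were 1.5-fold higher and 0 lower, beside 5.01% and 2.77% of all genes. Their median was 0.37. Clec4a3 stood at 84.6 and 52.7 CPM, Clec4e, which senses damaged cells and mycobacterial lipid, at 93.2 and 61.7 CPM, and Cd209c at 71.7 and 43.7 CPM. After thinning the Cd209c ratio was -0.38 and that of Clec4a3 0.13, and the Clec4e ratio was 0.51 with at least 50 Cd74 UMIs. Of 22 immediate-early and heat shock genes, with a median of -0.01, 3 were higher and 0 lower, beside the same shares of all genes. Transcripts of this group also respond to tissue digestion. The 3 higher ones were Hspa1a, Hspa1b and Klf6, with ratios of 0.81, 1.35 and 0.62. Those of Hspa1a and Klf6 were 0.25 and 0.32 after thinning. In other gates Hspa1a had ratios of 1.47 in mature dendritic cells, 1.18 in monocytes, 0.85 in C1q macrophages and -0.18 in cDC1. It stood at 44.8 CPM in Trem2-/- and 13.9 CPM in Trem2+/+ T cells, and was also higher in Trem2-/- B cells. The Hspa1a difference was thus not particular to members, and its cause was not tested. Tyrobp, the adaptor of Trem2, stood at 2131 and 2243 CPM (-0.07, -0.18 to 0.03), and 0 of 10 genes of its signalling list were past 1.5-fold.

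By a rule of level and size (100 CPM or more on average, 100 UMIs or more, 1.5-fold or more, and not under 0.2 of the level of another gate), 23 genes were eligible on the higher side, of which the first 12 were taken, and 9 on the lower side. Beyond Cxcl9 the higher ones included Ly6a, Lcp2, Hspa1a, Ubald2, Polr2e, Parp14, Fem1c, Cdkn1b and Stk4. Ly6a (Sca-1), itself induced by interferon, stood at 323 and 152 CPM in 34 and 24 members (1.09, 0.74 to 1.44), with 60.9% and 40.6% of its UMIs in the 3 richest and a ratio of 0.41 after thinning. Parp14, an interferon-inducible ADP-ribosyltransferase, stood at 138 and 81.3 CPM in 44 and 32 members (0.76, 0.26 to 1.27), and its ratio was 0.32 with at least 1 lectin UMI.

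Lcp2, the adaptor SLP-76, stood at 156 and 88.8 CPM in 51 and 39 members (0.82, 0.35 to 1.30). Cdkn1b, the cell-cycle inhibitor p27, and Stk4, a kinase of the Hippo pathway, had ratios of 0.74 and 0.72. Hspa1a, Ubald2, Polr2e and Fem1c ran from 0.76 to 0.81. After thinning Lcp2, Cdkn1b, Stk4, Ubald2 and Polr2e had ratios of 0.49, 0.37, 0.39, 0.44 and 0.27, above 0 and short of 1.5-fold. Except for Cxcl9, the higher genes named here were thus read in 22 or more members of each library.

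The lower side held Ccl4, Isg15, Plekho1, Axl, Arpp19, Ube2l3, Zfp706, Clec2d and Lilr4b. Axl, a receptor for apoptotic cells, stood at 93.2 and 151 CPM in 28 and 38 members (-0.69, -1.17 to -0.23), and at 431 and 419 CPM in C1q macrophages. Lilr4b, an inhibitory receptor, stood at 91.8 and 139 CPM (-0.59, -1.08 to -0.12), and its ratio without the richest members was -0.46. After thinning to 2000 UMIs the ratios of Fem1c, Axl and Lilr4b were -0.33, 0.13 and 0.96, on the other side of 0, and that of Plekho1 was -0.22. With at least 1 lectin UMI Arpp19, Ube2l3 and Clec2d had ratios of -0.57, -0.35 and -0.40, short of 1.5-fold. Zfp706 stood at 123 and 190 CPM in 45 and 67 members (-0.62, -1.03 to -0.21). Genes left out because another gate had far more of them included Cxcl10, Cxcl2, Ccl5, Ccr7 and F13a1, described above from the lists. Ccr7 stood at 3631 and 3495 CPM in mature dendritic cells. F13a1 stood at 997 and 665 CPM in monocytes, where its ratio was 0.58. Apoe, at 188 and 300 CPM, was left out too. One Trem2+/+ member held 96 of its 199 UMIs, and without the richest members the Apoe ratio went from -0.67 to -0.08.

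**Figure D4:**
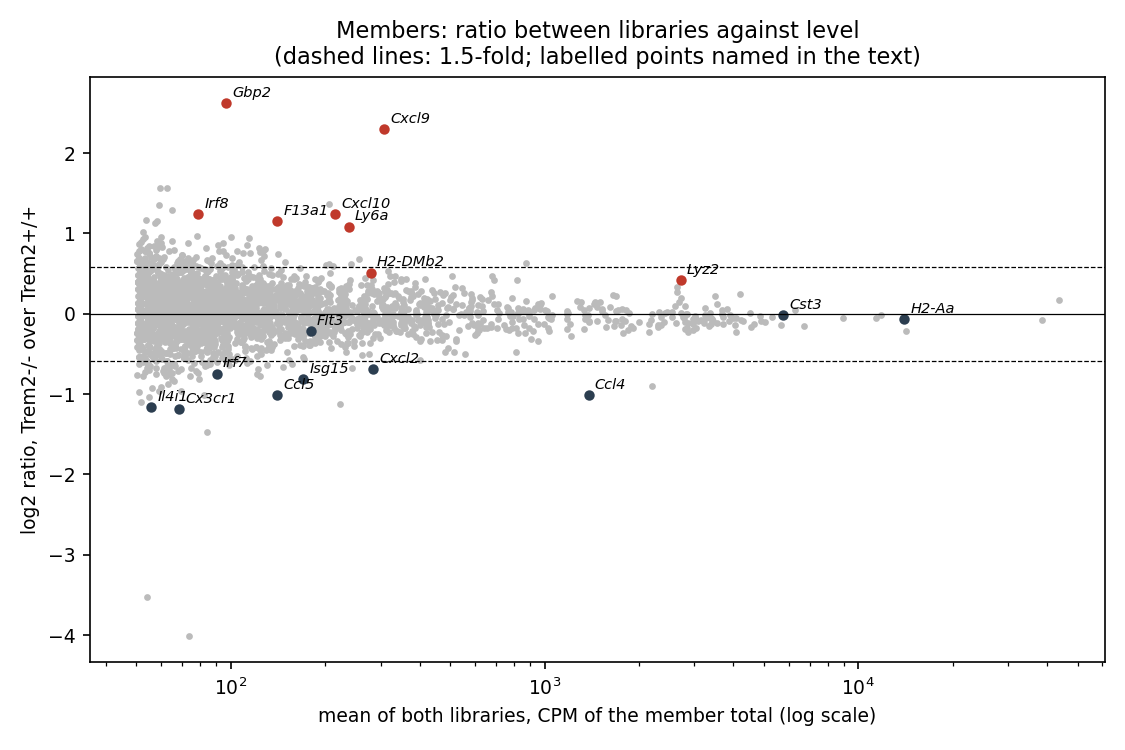
Log2 ratio of Trem2-/- over Trem2+/+ members (vertical axis) against the mean level of both libraries in CPM (log horizontal axis) for the 2633 genes that averaged 50 CPM or more; each point is a gene, dashed lines mark 1.5-fold and labelled points are named in the text. The spread narrows with level; Gbp2 and Cxcl9 stand highest, and the 2 lowest points, S100a8 and S100a9, come from 1 Trem2+/+ member.

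Transcripts of other cells were few and uneven. The 8 neutrophil markers had 26 UMIs in the Trem2-/- members and 175 in the Trem2+/+ members, of which 1 member held 165. Likewise 1 Trem2+/+ member held 67 of 89 endothelial UMIs, against 27 UMIs in the Trem2-/- members. Without the members rich in these markers the counts of genes past 1.5-fold were 136 and 69, and Cxcl9 and Ccl4 stayed past it. T cell markers had 12 and 7 UMIs and hepatocyte markers 3 and 16. The macrophage list had 469 and 434 CPM in sum, mostly Csf1r. B cell markers had 87 UMIs in 45 Trem2-/- members and 47 UMIs in 31 Trem2+/+ members, 125 and 70.8 CPM. Their 1 gene at the level filter, Ighm, had a ratio of 0.78, past 1.5-fold, while the B cell genes Ms4a1 and Pax5 were at 0 in both libraries. Ly6g, which defines neutrophils, was also at 0 in both. The part of these transcripts in the members' values was otherwise not tested.

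Members were also compared among themselves by Mgl2. A split by Mgl2 without Cd209a left 4 members per library, so members with an Mgl2 UMI (19 and 26) were set against those without one (70 and 66). This split was chosen after its values were seen. The 8 genes each way with the largest difference in both libraries are described, so their agreement between libraries is fixed by the choice. Median depth was 9068 and 8063 UMIs with Mgl2, against 7948 and 7679.5 over all members.

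The CCR4 ligands were among the genes higher with Mgl2. Ccl22 stood at 645 CPM with Mgl2 and 116 CPM without it in the Trem2-/- library, and at 551 and 179 CPM in the Trem2+/+ library. Ccl17 stood at 342 against 81.2 CPM and at 216 against 98.1 CPM. The cells with a Ccl22 UMI were 6 of 19 with and 11 of 70 without Mgl2, then 10 of 26 and 9 of 66. Those with a Ccl17 UMI were 3 of 19 and 10 of 70, then 6 of 26 and 5 of 66. In the Trem2-/- library 1 member with Mgl2 held 37 of the 53 Ccl17 UMIs, and 1 held 64 of the 100 Ccl22 UMIs. Without the member richest in the gene on each side of each library, Ccl22 stood at 243 against 79.5 CPM and 324 against 98.3 CPM, and Ccl17 at 108 against 50.8 CPM and 159 against 51.3 CPM. The direction stayed, while the Ccl17 excess in the Trem2-/- library rests on 3 cells. Also higher with Mgl2 were Slamf9, Nr4a3, Nr4a2, Colgalt1, Tnf and Rgs1. Tnf stood at 484 against 295 CPM and 708 against 255 CPM. Without the richest members the log2 ratios of Rgs1 and Nr4a2 in the Trem2-/- library were 0.52 and 0.47, short of 1.5-fold.

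Several monocyte transcripts were lower with Mgl2. Cd14, the endotoxin co-receptor, stood at 450 CPM without and 174 CPM with Mgl2 in the Trem2-/- library, and at 355 and 86.5 CPM in the Trem2+/+ library. Without the richest members the values were 391 and 70.5 CPM, then 258 and 60.1 CPM. Fn1, fibronectin, stood at 183 against 45.1 CPM and at 167 against 32.4 CPM, and without the richest members at 137 against 6.81 CPM and 131 against 11.2 CPM. Cebpb stood at 681 against 245 CPM and at 693 against 259 CPM. F13a1, Apoe, Lgals1, Vim and Plac8 lay on the same side, as did Lyz2, which was not picked by size, at 3543 against 1586 CPM and 2646 against 1503 CPM. Cd209a stood at 1132 against 1135 CPM and 952 against 1027 CPM, and Clec10a at 397 against 484 CPM and 357 against 178 CPM. Both are genes of the rule, and members without Mgl2 could enter only by these 2 lectins. Their levels on the side without Mgl2 are thus set in part by the rule. The monocyte-shared receptors Csf1r and Ccr2, also listed for comparison, had log2 ratios with over without Mgl2 of -0.34 and -0.067 in the Trem2-/- library and of -0.23 and -0.20 in the Trem2+/+ library, all short of 1.5-fold. The split thus did not separate all monocyte-shared transcripts.

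**Figure D5:**
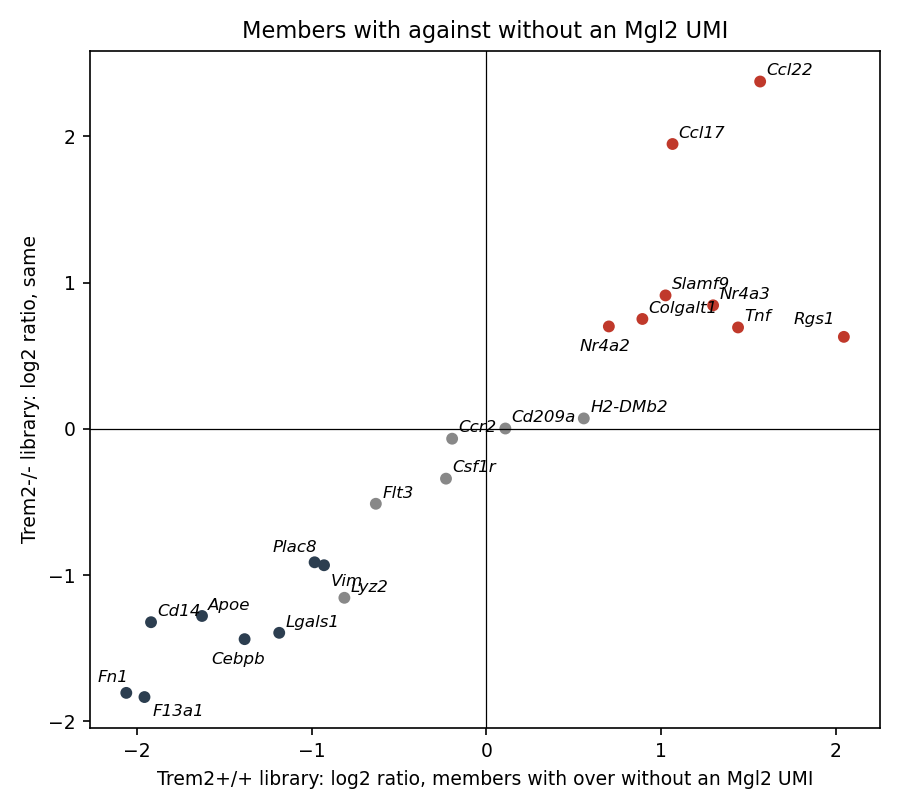
Log2 ratio of members with over members without an Mgl2 UMI (CPM plus 10) in the Trem2+/+ library (horizontal axis) and the Trem2-/- library (vertical axis); each point is a gene, with red and dark points picked for the largest difference in both libraries and grey points listed for comparison. Ccl22 and Ccl17 lie at the upper right, Fn1, F13a1 and Cd14 at the lower left, and Cd209a, a gene of the membership rule, near 0.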

How the data were processed

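Per the file headers, the deposited counts are whole UMIs per gene and barcode in filtered matrices written by Cell Ranger 5.0.1; mm10 is named in the submitters' processing notes. Barcodes under 200 genes or over 10% mitochondrial UMIs were left out. The members and all 33 gene lists were chosen with earlier results of these data known. UMIs were summed over members of a library and given as CPM, with exact Poisson (levels), Clopper-Pearson (shares) and conditional binomial (ratios) 95% intervals. Genes averaging 50 CPM or more entered counts of 1.5-fold differences. Named genes had a mean of at least 100 CPM and 100 UMIs, the 12 most extreme each way (12 against other gates, 8 each way within members), without genes of the rule, sex-linked, ribosomal, mitochondrial and predicted genes, or genes at under 0.2 of another gate's level; list members were named at any size. A few genes that met these rules are not reported here. Doublet scores came from scanpy 1.11.5, whose caller marked 5 of 12576 cells and so had not worked; no doublets were removed. Intervals were tested on simulated data. Gene positions are from GENCODE M21, whose identifiers matched 99.6% of those in the files. Alternatives changed the thresholds, depth, scaling and cells left out.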

Additional observations from a re-analysis of the deposited data

How the results depend on the processing

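Of the 21 genes named by level and size, 18 kept their direction under all 14 alternatives, and 5, Cxcl9, Ccl4 and Zfp706 among them, also stayed past 1.5-fold. Both shares of members stayed within their intervals. The number of genes past 1.5-fold depended on level and depth. With a mean of at least 20 CPM it was 488 higher and 294 lower. After thinning to 2000 UMIs, with the rule applied again, it was 469 and 359. Both add genes of few UMIs. The mean over cells gave 286 higher genes. With at least 1 lectin UMI 44 genes were lower, and with at least 4 it was 116; the cause was not tested. The direction reversed for Cxcl2 with at least 1 lectin UMI (0.084), without the highest 5% of doublet scores (0.10) and without the members rich in neutrophil or endothelial markers (0.10, an alternative added after seeing the data), for Il1rn with at least 1 lectin UMI (0.15), and for Apoe in members without Ly6c2 (0.44). Thinning reversed Fem1c (-0.33), Axl (0.13), Lilr4b (0.96), Il4i1 (0.55), Tgfbr1 (0.28), Cd209c (-0.38) and H2-DMb2 (-0.072), and the mean over cells reversed Lilr4b (0.038). For these the cause was not tested. All 12 genes compared with the next gate stayed above it under the alternatives run, but leaving out the members richest in a gene was not run for them. All 17 genes followed in the Mgl2 split kept their side under the alternatives run. For the split these included leaving out the members richest in a gene (added after seeing the data). No paired analysis was possible because each group has 1 library. With 89 and 92 members, genes near 50 CPM rest on few UMIs.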

Other observations

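Several gene groups had few or no members past 1.5-fold, beside 5.01% of all genes higher and 2.77% lower. Of 12 measured Fc receptor and integrin genes 0 were higher and 0 lower in the Trem2-/- members, with a median log2 ratio of 0.02; Itgax, the CD11c chain, stood at 281 and 285 CPM and Itgam, the CD11b chain, at 207 and 199 CPM. Of 19 innate sensor genes 6 were measured, 0 higher and 0 lower, with a median of 0.16; Nlrp3, the inflammasome sensor, stood at 102 and 81.3 CPM with a ratio of 0.32 (-0.21 to 0.86). Of 24 genes of lipid-associated macrophages 9 were measured in members, 0 were higher and 1, Apoe, was lower, with a median of 0.20. In this list Cd9 stood at 184 and 199 CPM and Plin2, which coats lipid droplets, at 76 and 66.3 CPM. Among 9 measured chemokine and lipid-mediator receptors Ccr7 was higher and Cx3cr1 lower, and Gpr183, the oxysterol receptor that positions type 2 cells, stood at 109 and 111 CPM with a ratio of -0.03 (-0.51 to 0.45).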
